A study of Homo sapiens with 7 samples.

Results

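Chromosome arm 17q was followed in SK-N-BE(2) neuroblastoma cells through its peaks of 5-hydroxymethylcytosine (5-hmC). A peak was counted to 17q when its midpoint lay between positions 25800000 and 81200000 of chromosome 17 in the genome build hg19. By this rule 60561 of the 1873636 peaks in 6 lists belonged to 17q, and 15379 belonged to the short arm 17p, taken as the positions up to 22200000. The other autosomes held 1767604 peaks, and 331 peaks between both arms were left aside. For each time 1 library of captured fragments carrying 5-hmC was sequenced, which gave 1 list of peaks. All cells had the genotype given as WT and belonged to 1 established line, and they were kept at 21% oxygen (0 h) or in 1% oxygen for 6, 12, 24, 48 or 72 h. There was no replicate at any time, so times and libraries cannot be told apart, and low oxygen cannot be told apart from time in culture since 21% oxygen was sampled at 0 h alone. The lists hold positions without heights or read counts, so the sequencing depth is unknown.

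5-hmC arises when TET enzymes, which use oxygen, oxidise 5-methylcytosine, and it is known to lie mostly over the bodies and distal regulatory elements of active genes. Gain of 17q, often from a break within the arm, is among the most frequent chromosome changes in neuroblastoma and is associated with poor outcome. Among the genes of the arm that have been discussed in this context are BIRC5, an inhibitor of cell death, PPM1D, a phosphatase that dampens the p53 response, and NME1, a nucleoside diphosphate kinase. SK-N-BE(2) carries an amplified MYCN gene, which encodes a transcription factor of the MYC family. The label of 17q as gained could not be checked here, since peak lists hold no copy number. More copies of the arm and a higher density of 5-hmC per copy cannot be told apart in these values. No gene positions of hg19 were at hand, so places along the arm are given by coordinates.

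The arm was compared first with 17p and with the other autosomes at each time. It held 9153, 9809, 9818, 9998, 10778 and 11005 peaks at 0, 6, 12, 24, 48 and 72 h. Per 1 Mb bin with a peak in any list, that was 161, 172, 172, 175, 189 and 193 peaks. On 17p the same measure was 106, 112, 112, 114, 127 and 128 peaks, and on the other autosomes it was 103, 105, 106, 112, 121 and 127 peaks. Every value of 17q lay above every value of both comparison sets, at whatever time they were taken. The ratio of 17q to 17p averaged 1.52 over the lists (1.49 to 1.54), and that to the other autosomes 1.58 (1.52 to 1.63). Both were above 1 in 6 of 6 lists, with p = 0.03125 in an exact two-sided sign-flip permutation test over lists, which is the smallest p that 6 lists allow and is also the value after Benjamini-Hochberg adjustment over 6 such tests. The lists come from 1 cell line and share its genome, so this test speaks only to the steadiness of the ratio between lists.

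Covered length, the sum of peak widths, set the arm further apart than peak number did. Peaks covered 98.6, 111.3, 109, 112, 122 and 127 kb per Mb of 17q at 0, 6, 12, 24, 48 and 72 h, while they covered 77.2 kb per Mb of 17p at 72 h and 59.0 kb at 0 h, and 68.9 and 52.6 kb per Mb of the other autosomes at these times. The mean ratio of 17q was 1.67 to 17p and 1.91 to the other autosomes, each above 1 in 6 of 6 lists (exact sign-flip permutation test, p = 0.03125, adjusted p = 0.03125). Against the gene-rich chromosomes 19 and 22 alone, the mean log2 ratio of 17q was smaller, 0.32 in covered length against 0.93 to all other autosomes, 0.28 against 0.66 in peaks per Mb and 0.015 against 0.16 in median width, each above 0 with p = 0.03125 (exact sign-flip permutation test). In all, 7.23 Mb of 17q lay in peaks at 72 h and 5.62 Mb at 0 h.

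The difference between both measures lay in peak width. The median peak of 17q was 437, 459, 450, 455, 463 and 472 bp wide at 0, 6, 12, 24, 48 and 72 h. Peaks of 17p had medians of 426, 445, 431, 442, 441 and 462 bp at these times, and those of the other autosomes 395, 410, 401, 407, 408 and 421 bp. The median of 17q was higher in 6 of 6 lists, by a mean ratio of 1.03 to 17p and 1.12 to the other autosomes (exact sign-flip permutation test, p = 0.03125 and adjusted p = 0.03125 for each). Broad peaks showed it more. Peaks of at least 1000 bp made up 14.7% of the peaks of 17q at 72 h, against 12.0% on 17p and 8.53% on the other autosomes, and 13.3%, 10.9% and 7.59% in these sets at 0 h. Among all autosomal peaks of at least 1000 bp, 17q held 5.54% at 0 h (95% Clopper-Pearson interval 5.24 to 5.85%), but it held 2.76% (2.64 to 2.88%) of those under 300 bp. Intervals of this kind cover the counting of peaks only.

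The place of 17q among chromosomes gave a scale for these densities. Chromosome 17 ranked 1st of 22 autosomes in peaks per Mb at 72 h (171) and at 0 h (142), taken over its length to the last peak. It ranked 2nd in protein-coding genes per Mb, with 14.4 (1169 genes, counted on another build, GRCh38.p14), and 21st in peaks per gene, with 9.86 at 0 h. Among 39 autosomal arms, 17q ranked 2nd in mean peak density with 181 per Mb, after 22q with 190. It ranked 2nd also in mean peak width, 615 bp at 0 h, after 19p with 634 bp. When autosomal bins were sorted into deciles of density, 33 of the 55 whole bins of 17q (60%) fell into the 3 densest deciles, against 31.8% of the bins of 17p and 29.4% of those of the other autosomes. The densest decile alone took 15 bins of 17q, and they held 4379 of its peaks at 0 h. On the other autosomes the mean width of peaks rose with each decile of density, to 627 bp in the densest at 0 h, against 368 bp in the sparsest. Set against bins of the same decile on other chromosomes, the mean width of 17q peaks was still 1.10, 1.11, 1.12, 1.11, 1.11 and 1.11 times as large at 0, 6, 12, 24, 48 and 72 h, and that of 17p was between 1.059 and 1.079 times as large.

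The next question was whether the arm gained or lost peaks in 1% oxygen beyond what the lists did as a whole. All lists at 1% oxygen were longer than that at 0 h, and the autosomal total at 72 h was 1.23 times that at 0 h. The share of 17q in the autosomal peaks was 3.26% at 0 h (3.19 to 3.32%), 3.40% at 6 h (3.34 to 3.47%), 3.39% at 12 h (3.32 to 3.46%), 3.25% at 24 h (3.19 to 3.32%), 3.25% at 48 h (3.19 to 3.31%) and 3.18% at 72 h (3.12 to 3.23%). With all peaks counted, the arm had its highest shares at 6 and 12 h and its lowest at 72 h, and the intervals of the 6 h and 12 h shares lay above that of 72 h. The share in covered length went the same way, with 3.88, 4.09, 4.09, 3.90, 3.93 and 3.81%. Against hours, the share of peak number had Pearson's r = -0.714 (exact permutation p = 0.101, adjusted p = 0.235 over 4 relations). Its Spearman's rho was -0.829 (p = 0.0583 by exact permutation, 0.189 when adjusted). The share of covered length had r = -0.595 (exact permutation p = 0.188) and rho = -0.371 (exact permutation p = 0.497). Neither passed. With the 2 most distant times from the median left out, r was -0.200 for number and -0.086 for length. The relation depended on single lists. Without the 0 h list the share of peak number had r = -0.918 over 5 lists (exact permutation p = 0.025, not adjusted). Without the 72 h list it had r = -0.457 (exact permutation p = 0.458). For the share of covered length r was -0.890 without the 0 h list and -0.256 without the 72 h list. The relation depended also on which peaks were counted. With the same number of autosomal peaks taken from each list, widest first, r was -0.099 for number (exact permutation p = 0.846) and -0.181 for length (exact permutation p = 0.718). This setting drops the narrowest peaks of the longer lists, of which 17q held a smaller share, 2.63% of those under 300 bp at 72 h. List length and peak width therefore cannot be told apart by it. Set against the number at the ratios of its density deciles, the number of 17q had r = 0.217 with hours (exact permutation p = 0.668). That measure is a ratio to 0 h and not a share, and its 0 h point is 1 by definition. The later ratios, 1.05, 1.05, 1.02, 1.05 and 1.03 at 6, 12, 24, 48 and 72 h, all lay above this point. The sign of r is therefore not a reversal of the course of the share.

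**Figure D1:**
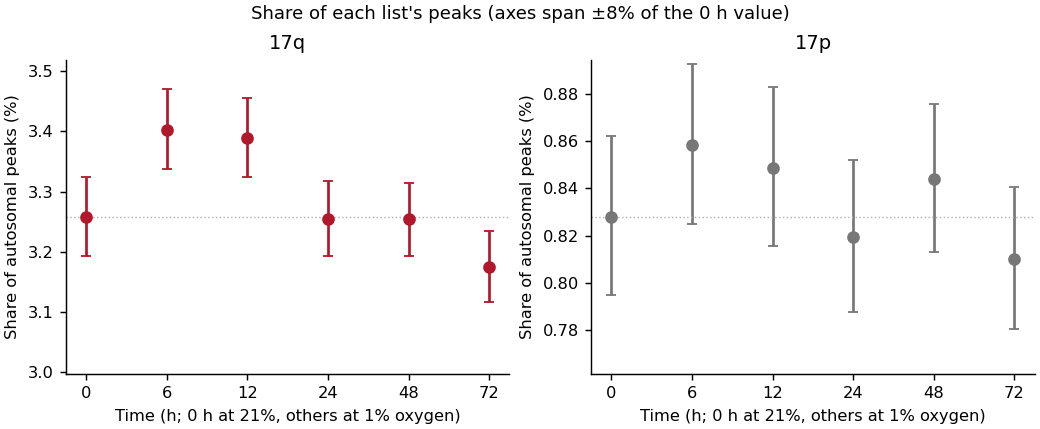
Share of 17q (left) and 17p (right) in the autosomal peaks of each list, in percent, against time in hours, with 95% Clopper-Pearson intervals as bars; both axes span the same relative range around the 0 h value (dotted line). For 17q the points at 6 and 12 h, 3.40 and 3.39%, stand above the 0 h line and the point at 72 h, 3.18%, stands below it.

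At 6 h 17q had 7.17% more peaks than at 0 h, 17p had 6.36% more and the other autosomes had 2.41% more. At 72 h the order was the other way round, with 20.2% more on 17q, 20.7% more on 17p and 23.5% more on the other autosomes. The ratio of 17q to 17p in peak number was 3.94, 3.96, 3.99, 3.97, 3.85 and 3.92 at 0, 6, 12, 24, 48 and 72 h, a range from 3.85 to 3.99 (r = -0.583 with hours, exact permutation p = 0.235; rho = -0.429, exact permutation p = 0.419). With the 2 most distant times left out as above, this r turned to 0.606. Among peaks of at least 500 bp this ratio was 4.28, 4.30, 4.31, 4.23, 4.14 and 4.12, with r = -0.942 (exact permutation p = 0.00833, not adjusted), so the relation depends on which peaks are counted. The median width of 17q exceeded that of the other autosomes by 42, 49, 49, 48, 55 and 51 bp (r = 0.691, exact permutation p = 0.144; rho = 0.754, exact permutation p = 0.0944), which did not pass either. This relation turned to r = -0.453 (exact permutation p = 0.367) with peaks of at least 500 bp, and passed with r = 0.829 (exact permutation p = 0.0458) with the same number of peaks per list. The 5 comparisons with 0 h share the 0 h list.

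At 72 h dense bins had gained fewer peaks, relative to their number, than sparse bins had in the other autosomes too. Each arm's number was therefore set against the number that would follow if every bin had the ratio to 0 h of its density decile. By this measure 17q stood at 1.05, 1.05, 1.02, 1.05 and 1.03 at 6, 12, 24, 48 and 72 h. It ranked 1st, 1st, 6th, 1st and 7th of 39 arms. Without this adjustment the ratios of its whole bins, relative to totals, were 1.04, 1.04, 1.00, 1.00 and 0.976, and the ranks were 1st, 1st, 19th, 19th and 29th. The adjusted values of 17p were 1.04, 1.03, 0.995, 1.03 and 0.993, below those of 17q at all 5 times. The median over the other arms was between 0.996 and 1.00. The highest of the other arms reached 1.07 at 24 h and 1.05 at 72 h, above 17q. No test was made of these ranks.

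**Figure D2:**
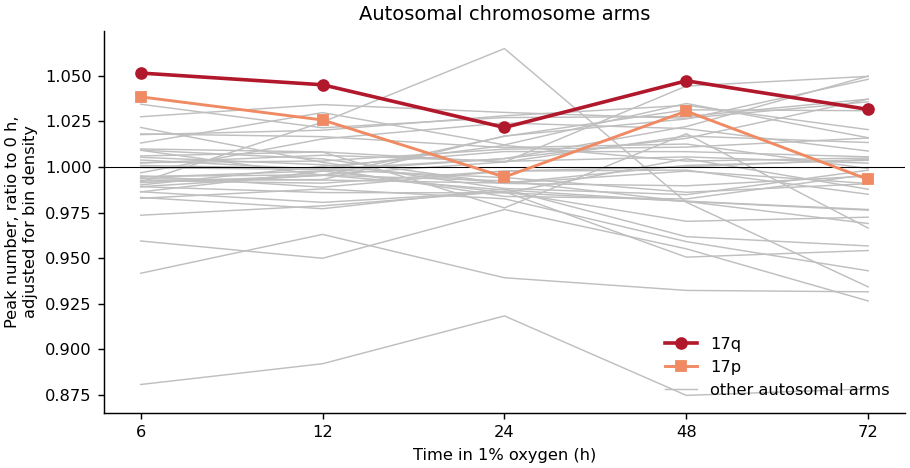
Peak number of each autosomal arm as a ratio to 0 h, adjusted for the density deciles of its bins, against time in 1% oxygen in hours; 17q is red, 17p orange and the other arms grey, 1 line each. The line of 17q runs from 1.02 to 1.05 and is the highest at 6, 12 and 48 h.

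Within the arm the early rise was spread over most bins. At 6 h 48 of the 55 whole 1 Mb bins of 17q (87.3%) had a ratio to 0 h above 1 after division by the ratio of the list totals, against 15 of 22 bins of 17p (68.2%) and 1301 of 2621 bins of the other autosomes (49.6%). At 12 h there were 44 such bins on 17q (80%), at 24 h 32 (58.2%), at 48 h 34 (61.8%) and at 72 h 27 (49.1%). On the other autosomes the shares were 48.6, 55.3, 58.2 and 58.5% at these times. The share of 17q was thus near theirs at 24 and 48 h and below it at 72 h. In 12 of 55 bins of 17q (21.8%) the ratio was above 1 at 6 and 12 h and below 1 at 48 and 72 h, a pattern of 5.95% of the bins elsewhere. In 19 bins (34.5%) it was above 1 at all 5 times, against 583 of 2621 bins elsewhere, and in 3 (5.45%) below 1 at all 5, against 446 elsewhere. None of these shares of bins was matched for density, and 60% of the bins of 17q lay in the 3 densest deciles, against 29.4% elsewhere. In plain number, all 55 bins had more peaks at 72 h than at 0 h.

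No bin of 17q changed by the size rule used for the genome, a difference of at least 10 peaks from 0 h with a ratio relative to totals of at least 1.5 or at most its inverse. At 72 h 0 of 55 bins were higher and 0 lower by it, where 3.93% of all 2700 autosomal bins were higher and 0% lower. At 48 h 0 bins of 17q were higher, against 2.74% of autosomal bins, and at 24 h 0 against 0.333%. At 6 h and 12 h 0 bins of 17q were called in either direction, and hardly any bin elsewhere was, with 0.037% lower at 6 h and 0.037% higher at 12 h. In bins of 500 kb the same rule found 5 of 110 bins of 17q higher at 72 h, against 5.34% of autosomal bins, so that the count of 0 depends on the bin size. These 5 lay at 31.5 to 32, 45.5 to 46, 52 to 52.5, 58.5 to 59 and 66.5 to 67 Mb.

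**Figure D3:**
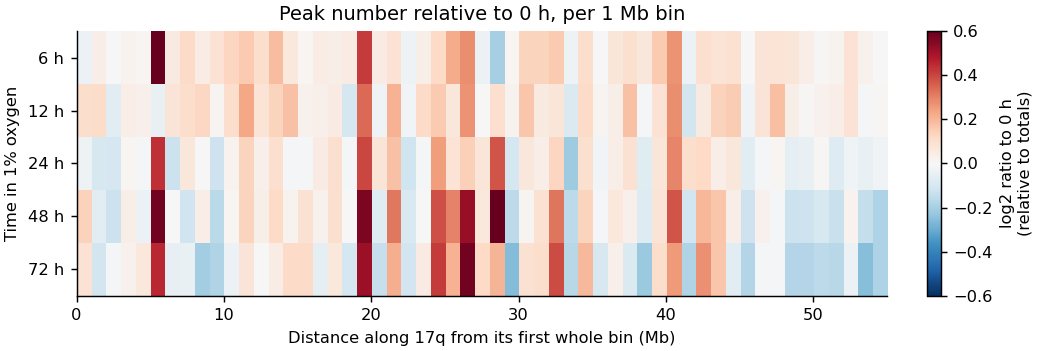
Log2 ratio of peak number to 0 h, relative to list totals, for each whole 1 Mb bin of 17q (columns, by distance in Mb from the first whole bin) at each time in 1% oxygen (rows, 6 h at the top); red is above 0 h and blue below. Red fills most of the 6 h and 12 h rows, and the last 11 columns all lie below 0 at 72 h.

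Density and ratio went against each other along the arm. Over the 55 bins, the mean number in the 6 to 48 h lists and the ratio of 72 h to 0 h had Spearman's rho = -0.600, given as a description, since neighbouring bins share a library and are not replicates. The value was -0.543 over the 22 bins of 17p and -0.592 over 2435 bins of the other autosomes with at least 10 peaks, so the value of 17q lay near that of the other autosomes. The bins of 17q held a median of 160 peaks over the lists, with a range from 11.7 to 372, and the bins of the other autosomes a median of 103.

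**Figure D4:**
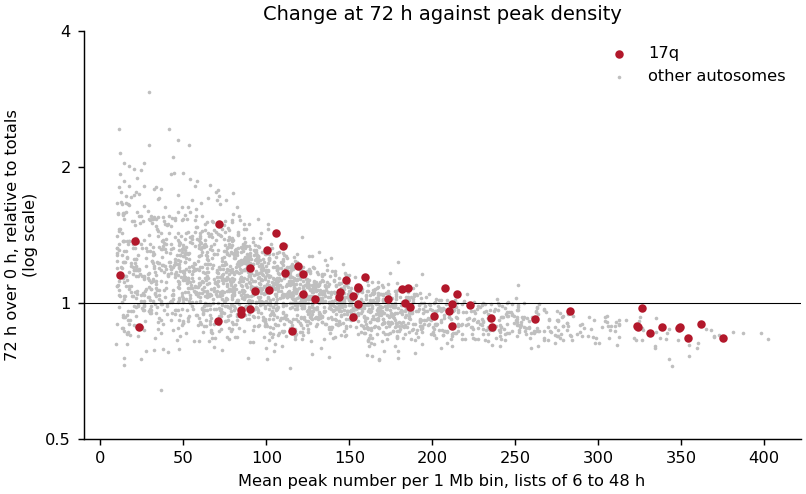
Peak number at 72 h over 0 h, relative to list totals (log scale), against mean peak number per 1 Mb bin in the 6 to 48 h lists; each red point is a bin of 17q and each grey point a bin of another autosome. The red points fall with density inside the grey cloud, and bins of 17q above 300 peaks lie below 1.

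Steps along the arm were sought by splitting the 55 bins at the place where the mean log2 covered length differed most, over its standard error, between both sides, with at least 5 bins on each. The split fell at 70 Mb in each of the 6 lists. The 11 bins distal of it, toward the telomere, had a geometric mean of 250 kb in peaks per Mb at 72 h and 201 kb at 0 h, and the 44 proximal bins 78.9 kb at 72 h and 56.7 kb at 0 h. On the log2 scale distal exceeded proximal by 1.72 in the mean over lists, a 3.28-fold difference, and by 1.80, 1.75, 1.76, 1.72, 1.65 and 1.64 at 0, 6, 12, 24, 48 and 72 h. The split was chosen by the data and carries no test. Steps of this size were common: among 38 arms with at least 20 bins, that of 17q ranked 16th in size and 7th in size over standard error. It stood at 70 Mb also in peak number, where it measured 1.27, and in bins of 500 kb, where it measured 1.85. At the split itself, the bin from 70 to 71 Mb held 291 peaks at 72 h and 246 at 0 h, and the bin from 69 to 70 Mb held 176 and 127. Whether a change of copy number lies there was not tested.

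**Figure D5:**
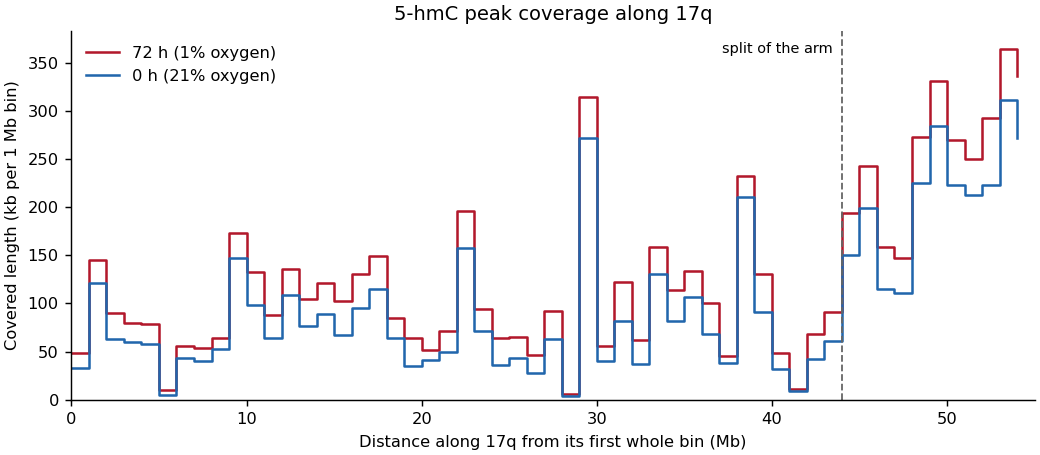
Covered length in kb per 1 Mb bin along 17q, by distance in Mb from the first whole bin, at 72 h in 1% oxygen (red) and at 0 h in 21% oxygen (blue); the dashed line marks the split of the arm. The 72 h line runs above the 0 h line along the arm, and 11 bins right of the split form its densest stretch.

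The distal segment differed from the proximal one in width and in its course over time. Its peaks had a median width of 551 bp at 72 h and 487 bp at 0 h, against 447 and 416 bp in the proximal segment. Peaks of at least 1000 bp made up 21.4% of distal peaks at 72 h and 18.5% at 0 h, against 11.5% and 10.5% of proximal ones. The last 11 Mb of the arm held 772 of the 1623 peaks that reached 1000 bp at 72 h (47.6%) and 597 of 1214 at 0 h (49.2%). Of those that reached 2000 bp it held 60.2% at 72 h and 62.2% at 0 h. In number, the distal segment held 3221, 3402, 3425, 3457, 3574 and 3608 peaks at 0, 6, 12, 24, 48 and 72 h, and the proximal segment 5818, 6282, 6279, 6428, 7080 and 7274. Relative to the list totals and to 0 h, the distal number stood at 1.03, 1.03, 0.982, 0.941 and 0.908 from 6 to 72 h, and the proximal number at 1.05, 1.05, 1.01, 1.03 and 1.01. Summed over its bins, the distal segment thus fell behind the growth of the lists from 24 h on, although its number was higher at each time. The proximal segment kept pace with that growth. Dense bins elsewhere fell behind as well. At 72 h the densest decile of the other autosomes held 1.10 times its peaks of 0 h, and the next decile 1.16 times. The distal segment held 1.12 times its peaks of 0 h, where the autosomal total was 1.23 times that at 0 h. Single distal bins differed: that from 70 to 71 Mb stood at 1.05, 1.03 and 0.959 at 24, 48 and 72 h, that from 72 to 73 Mb at 0.996, 1.02 and 0.994, and that from 78 to 79 Mb at 0.983, 1.02 and 0.976. The distal share of the peaks in whole bins of 17q was 33.2% at 72 h and 35.6% at 0 h.

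The ratio to 0 h was searched for steps in the same way. At 72 h the split again fell at 70 Mb, with the distal bins 0.19 lower on the log2 scale, and at 48 h it fell at 71 Mb, with 0.19. At 24 h it fell at 71 Mb with a difference of -0.09, at 12 h at 74 Mb with -0.05 and at 6 h at 53 Mb with -0.05. At 72 h this step ranked 26th in size and 9th in size over standard error among the 38 arms. All 11 distal bins were below 1 at 72 h, from 0.838 to 0.994, and formed the longest unbroken run on one side of 1 along the arm. The next longest was a run of 6 bins above 1 from 49 to 55 Mb, from 1.03 to 1.49. A run of 5 bins below 1 lay at 32 to 37 Mb, followed by 5 bins above or at 1 from 37 to 42 Mb. Cut into 5 pieces of 11 Mb, the arm stood at 0.965, 1.05, 1.04, 1.00 and 0.908 at 72 h from the centromere outward, relative to totals.

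Peaks were gathered in a few very dense bins. The bin from 79 to 80 Mb was the densest in the mean over lists, with 358, 374, 366, 379, 382 and 370 peaks at 0, 6, 12, 24, 48 and 72 h, and 365 kb of its length lay in peaks at 72 h, against 312 kb at 0 h. The bins from 76 to 77, 80 to 81 and 75 to 76 Mb were the 2nd, 4th and 5th densest, with 374, 363 and 360 peaks at 72 h and 338, 334 and 330 at 0 h. The 3rd was apart from the distal segment: the bin from 55 to 56 Mb held 341, 353, 357, 346, 361 and 351 peaks. From 0 h to 72 h peak number rose by 2.93 to 10.7% in these 5 bins, and covered length grew more than number. The densest decile of the other autosomes did the same, with 1.10 times the number and 1.18 times the covered length of 0 h. Over all other autosomes covered length at 72 h was 1.31 times that at 0 h. At 79 to 80 Mb the number was 3.35% higher at 72 h than at 0 h, and relative to totals its ratio was 0.838. The bins with the lowest ratios at 72 h were, in order, those from 55, 79, 64, 34 and 80 Mb, at 0.834, 0.838, 0.857, 0.865 and 0.881. Of these 5, only the bin from 34 to 35 Mb was of middling density, with 110 peaks at 72 h and 103 at 0 h.

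The sharpest pair of borders between neighbouring bins lay in the middle of the arm. The dense bin from 55 to 56 Mb followed the sparsest whole bin of 17q, from 54 to 55 Mb, which held 9, 8, 10, 13, 17 and 13 peaks at 0, 6, 12, 24, 48 and 72 h. In the mean over lists that was 352 peaks after 11.7. On its other side the bin from 53 to 54 Mb held a mean of 159. The next sharpest lay at 31 Mb, with means of 20.2 peaks distal and 125 proximal of it, at 68 Mb, with 121 and 23.2, and at 32 Mb, with 84.8 and 20.2. After these came a border at 64 Mb, with 329 peaks distal and 85 proximal of it at 72 h and 311 and 73 at 0 h. The next sparsest bins were those from 31, 67, 46 and 52 Mb, with means of 20.2, 23.2, 70.2 and 72.8 peaks.

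Stretches of at least 250 kb with no peak in any of the 6 lists, in the rows analysed here, numbered 8 on 17q and covered 3.53 Mb. Per 100 Mb there were 14.4 on 17q, 40.5 on 17p and 24.8 on the other autosomes. The longest of them, chr17:46238359-46903605 with 665 kb, had an abrupt border, with 62 peaks at 72 h and 55 at 0 h in the 200 kb before it and 11 and 8 in the 200 kb after it. The stretch chr17:67547276-68085192 measured 538 kb. The pair chr17:53908547-54366097 and chr17:54366333-54815214 was parted by a single merged peak region and took up most of the bin from 54 to 55 Mb. In the 200 kb before this pair there were 52 peaks at 72 h and 42 at 0 h.

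The bins with the highest ratios at 72 h lay in the proximal segment and were sparse or of middling density. The bin from 52 to 53 Mb stood first, with 53, 66, 66, 64, 90 and 98 peaks at 0, 6, 12, 24, 48 and 72 h and a ratio of 1.49 relative to totals, just under the rule's 1.5. Most of its rise came between 24 and 48 h. The bin from 45 to 46 Mb held 72, 99, 94, 104, 126 and 127 peaks (ratio 1.43) and had risen by 6 h already. Within it, the 100 kb from 45.6 to 45.7 Mb held 5, 13, 11, 15, 21 and 19 peaks. The bin from 31 to 32 Mb held 14, 23, 14, 21, 25 and 24 peaks (ratio 1.37), so that its 12 h value equalled its 0 h value. The bins from 50 to 51 and from 58 to 59 Mb held 142 and 133 peaks at 72 h, against 86 and 82 at 0 h (ratios 1.34 and 1.31), and both changed by less than 15% up to 6 h. These bins were picked for their values at 72 h, and their rise there is a description.

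Single peaks were then compared by overlap of at least 1 bp. Of the 11005 peaks of 17q at 72 h, 72.9% (72.1 to 73.8%) overlapped a peak of the 0 h list, against 70.3% (68.5 to 72.0%) on 17p and 70.4% (70.2 to 70.5%) on the other autosomes. Seen from the other list, 92.7% (92.2 to 93.3%) of the 0 h peaks of 17q were met by a peak at 72 h, against 90.0% on 17p and 89.8% on the other autosomes. The interval of 17q lay above that of the other autosomes in both directions at 72 h. These intervals count peaks and hold no replicate error. Peaks of 17q were also wider, with a median of 472 bp at 72 h against 421 bp on the other autosomes. Overlap was not compared at equal width or density. At 6 h the first measure ran the other way, with 81.5% (80.7 to 82.3%) of the peaks of 17q overlapping a 0 h peak, against 82.5% (82.4 to 82.7%) on the other autosomes, and at 12 h it was 81.7% (81.0 to 82.5%) against 82.6% (82.5 to 82.8%). At 24 h it was 80.9% against 79.3% and at 48 h 75.2% against 74.1%. The 2979 peaks of 17q at 72 h without a partner had a median width of 316 bp, against 573 bp for those with one, and 0 of them reached 1000 bp. The 664 peaks of 0 h without a partner at 72 h had a median of 266 bp, and 0 of these reached 1000 bp. Peaks without a partner were narrow on the other autosomes too. At 72 h their median there was 311 bp, against 495 bp with a partner, and 134 of 98539 reached 1000 bp. Those of 0 h had a median of 267 bp there, and 4 of 27350 reached 1000 bp.

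Merging the peaks of all lists gave 12468 regions on 17q. Of these, 52.1% (51.2 to 52.9%) had a peak in all 6 lists, against 46.5% (44.8 to 48.2%) of the regions of 17p and 47.0% (46.8 to 47.1%) of those of the other autosomes. Regions seen at 72 h alone made up 5.64% on 17q (5.24 to 6.06%), 6.04% on 17p and 7.14% on the other autosomes (7.06 to 7.22%). Regions seen at 6 h alone made up 2.05% (1.80 to 2.31%), 2.08% and 1.71% (1.67 to 1.75%). The share at 72 h alone was thus lower on 17q than on the other autosomes, and the share at 6 h alone was higher and near that of 17p. These intervals count regions and hold no replicate error, since each time had 1 library. A further 427 regions of 17q (3.42%) were present in all 5 lists at 1% oxygen and not at 0 h, against 3.48% on 17p and 2.97% on the other autosomes. At 0 h alone there were 173 (1.39%), against 2.05% on 17p and 1.84% on the other autosomes. Within the arm, 57.2% of the distal regions and 49.7% of the proximal ones had a peak in all 6 lists, and 4.10% and 6.37% were seen at 72 h alone.

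The regions with exactly 1 peak in each list allowed widths to be compared peak by peak. There were 4874 of them on 17q, and their median width was 459.5, 515, 498, 514, 541 and 554 bp at 0, 6, 12, 24, 48 and 72 h. At 6 h 66.5% of them (65.2 to 67.9%) were wider than at 0 h, against 61.0% (58.1 to 63.8%) on 17p and 59.9% (59.6 to 60.1%) on the other autosomes. At 72 h 74.9% (73.6 to 76.1%) were wider, against 69.8% (67.1 to 72.5%) and 71.1% (70.9 to 71.4%). Widening was therefore more frequent on 17q than on 17p and on the other autosomes at both times, by intervals that count regions and hold no replicate error.

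The widest peaks lay near the distal end. At 72 h the widest of 17q was chr17:80200118-80209407, with 9290 bp, where the widest peak measured 3243, 3139, 3634, 4875 and 7056 bp at 0, 6, 12, 24 and 48 h and 4 separate peaks stood at 0 h. The peak chr17:80057121-80065939 followed with 8819 bp at 72 h, and at this place there was a single peak of between 8727 and 9007 bp in each list from 6 h on, against 3 peaks at 0 h, the widest of 4499 bp. The third, chr17:74677827-74686470, measured 8644 bp at 72 h and was 4 peaks at 0 h. These were chosen as the widest at 72 h, so that their growth is set in part by the choice. Chosen instead at 0 h, the widest was chr17:75314240-75323114 with 8875 bp, which was 1 peak of 8885, 9786 and 9879 bp at 12, 24 and 48 h, and 2 peaks at 6 h and at 72 h, the widest of 6976 and 5008 bp. The peak chr17:75452792-75458634 held its extent, with 5843 bp at 0 h and between 5694 and 5949 bp in all later lists.

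Regions that appeared or vanished were narrow by comparison. The widest at 72 h among those present at all 5 times in 1% oxygen and absent at 0 h was chr17:53535680-53536673, whose widest peak measured 765, 539, 384, 525 and 994 bp from 6 to 72 h. It was followed by chr17:60978259-60979224 with 966 bp and chr17:76722017-76722943 with 927 bp at 72 h, whose widest peaks in the 6 to 48 h lists stayed under 500 bp. Among the regions seen at 0 h alone, the widest were chr17:74117057-74117548 with 492 bp and chr17:81052514-81052964 with 451 bp.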

How the data were processed

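The deposited lists hold 3 columns, the chromosome and the start and end positions of each peak, 1 list per library, and the authors' lists carry no score. Per the labels' protocols, DNA was sheared to 300 bp, 5-hmC was given an azide glucose and biotin, and fragments were captured on streptavidin. Per the submitters' processing notes, the build was hg19 and the tools were BWA 0.7.17, MACS2 and HTSeq. The sources used here do not give the threshold, nor whether the input served as control, and the input was not analysed here.

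Peaks were assigned to arms and 1 Mb bins by midpoint, and covered length is the sum of widths. Ratios of number have 0.5 added to both values in bins and are divided by the ratio of autosomal totals. Step searches used log2(covered kb + 1). Arms were parted at the largest stretch without peaks, with density deciles over 10 classes of bins. Relations with hours were tested over all 720 orders of the lists and levels over 64 sign patterns, with Benjamini-Hochberg adjustment, and shares have 95% Clopper-Pearson intervals. Bins and peaks are named as the 5 most extreme by mean number, ratio and width, and those of 500 kb bins, borders, empty stretches, runs and the widest at 0 h were chosen after their values were seen. The arm, its limits and all lists of bins were chosen with earlier results of these data known. Alternatives changed the bins, peaks counted, reference list, overlap rule, denominator, arm limit and comparison chromosomes, and left out each list. The computations were tested on simulated lists, where 13 of 13 quantities were recovered. Gene symbols could not be joined to hg19 positions. Scripts ran in Python 3.11.15 with pandas 2.3.3, NumPy 2.4.6, Matplotlib 3.10.9 and SciPy 1.17.1.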

Additional observations from a re-analysis of the deposited data

How the results depend on the processing

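Of 139 alternative values, 87 kept their direction and side of the threshold or moved by less than their spread. Leaving out each list in turn brought all 6 comparisons of level to p = 0.0625 (exact permutation), the smallest that 5 lists allow, with log2 ratios of 17q to 17p from 0.60 to 0.61 in peaks per Mb, 0.73 to 0.74 in covered length and 0.043 to 0.051 in median width, and to the other autosomes from 0.65 to 0.67, 0.92 to 0.94 and 0.16 to 0.17. Over time, r for the share of number then ranged from -0.918 without the 0 h list (exact permutation p = 0.025) to -0.457 without the 72 h list (exact permutation p = 0.458). For the share of length it ranged from -0.890 to -0.256, without these same lists. It ranged from -0.703 to -0.542 for the ratio of 17q to 17p and from 0.593 to 0.856 for the width difference. With peaks of at least 500 bp, the ratio of 17q to 17p had r = -0.942 (exact permutation p = 0.00833) and the width difference turned to r = -0.453. With the same number of widest peaks per list the width difference had r = 0.829 (exact permutation p = 0.0458). The p-values of these alternatives were not adjusted. With the number at the ratios of the density deciles as denominator, the measure is a ratio to 0 h and not a share. It had r = 0.217, with the 0 h point at 1 by definition. Bins of 17q higher at 72 h numbered 5 of 110 with 500 kb bins, against 5.34% of autosomal bins. With peaks of at least 500 bp they numbered 2 of 55, against 8.44% of autosomal bins. The overlap of 72 h with 0 h peaks was 63.6% where at least 0.5 of both peaks had to be shared, 69.0% for midpoints, 67.0% for peaks of at least 500 bp and 81.0% with the same number of autosomal peaks per list, widest first. The step measured 1.27 in peak number, 1.85 in 500 kb bins and 1.80, 1.65 and 1.64 in the 0, 48 and 72 h lists. The causes were not tested. No paired analysis was possible because the labels carry no replicate numbers and each time has 1 library. Depth is unknown, and its part in the number and width of the peaks of each list was not tested.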

Other observations

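The contig chr17_ctg5_hap1, an alternative form of a stretch of chromosome 17, carried 139, 145, 148, 159, 179 and 176 peaks at 0, 6, 12, 24, 48 and 72 h, which were not counted to 17q. By width, 17q held 2.63% of the autosomal peaks under 300 bp, 2.73% of those from 300 to under 500 bp, 3.55% of those from 500 to under 1000 bp and 5.35% of those of at least 1000 bp at 72 h. At 0 h it held 2.76, 2.93, 3.58 and 5.54% in these classes. Among peaks of at least 1000 bp, the share was 5.89% at 6 h and 5.97% at 12 h, above those at 0, 24, 48 and 72 h.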
